A study of Mus musculus with 9 samples.

Results

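The genes described here are 10 receptors, co-receptors and an adaptor through which cells sense microbial products, interleukin-1 (IL-1) and tumour necrosis factor (TNF), and they were picked by gene name from the 13643 genes that have a row in either of 2 expression tables. All 10 (*Tlr2*, *Tlr3*, *Tlr4*, *Cd14*, *Ly96*, *Myd88*, *Il1r1*, *Il1rap*, *Tnfrsf1a* and *Tnfrsf1b*) have a row in both tables. RNA-seq was performed on 9 libraries of AML12 cells, a hepatocyte line from mouse liver that was grown with serum, an insulin, transferrin and selenium supplement and dexamethasone, a glucocorticoid. There were 3 control libraries (Ctrl), 3 libraries with a first shRNA against *Srrm2* (sh1) and 3 with a second (sh2). The sh1 and sh2 libraries are labelled with 5 days of lentiviral infection, whereas the control libraries are labelled as control for the shRNA and carry no day of their own. *Srrm2* encodes a scaffold protein of nuclear speckles, and the study compared each hairpin with the control. AML12 is a single established line, so all libraries share its genetic background.

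Each table holds a mean normalized count per gene, which the authors took over the control libraries and those of 1 hairpin together, and the authors' own comparison, which was not used here. The mean cannot separate control from knockdown libraries, has no spread between replicates, and does not check the knockdown of *Srrm2* itself, whose mean normalized counts were 3428 in the table of sh1 and 3759 in that of sh2. What follows therefore describes how much RNA of each receptor the control and knockdown cells held on average, and where the tables of the hairpins differ, without a test. The tables list 13424 and 13478 genes, and their means add up to 6144610 and 6393460 normalized counts. They were normalized separately, so a level is compared with other genes of its own table.

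Toll-like receptors recognise microbial molecules at the cell surface or in endosomes. Tlr4 detects lipopolysaccharide only together with Ly96 (MD-2), to which Cd14 hands the ligand, Tlr2 detects bacterial lipoproteins, and Tlr3 detects double-stranded RNA in endosomes. Tlr2, Tlr4 and the IL-1 receptor, formed by Il1r1 and its accessory chain Il1rap, recruit the adaptor Myd88 through a shared cytoplasmic domain, whereas Tlr3 signals through Ticam1. Tnfrsf1a and Tnfrsf1b are the receptors for TNF, of which Tnfrsf1a carries a death domain. In the liver these routes lead to NF-kB and to acute-phase gene expression in hepatocytes.

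Levels of different genes were compared as mean normalized count per kilobase, where the length of a gene is that of all its annotated exons merged. On this scale *Cd14* and *Tnfrsf1a* stood far above the other members, *Tlr4* and *Il1rap* far below, and the remaining 6 lay between 14.9 and 60.5 in the table of sh1. The median of the 10 genes was 30.8 per kilobase in the table of sh1 and 28.3 in that of sh2, against 44.2 and 46.4 over the 13259 genes in both tables.

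**Figure D1:**
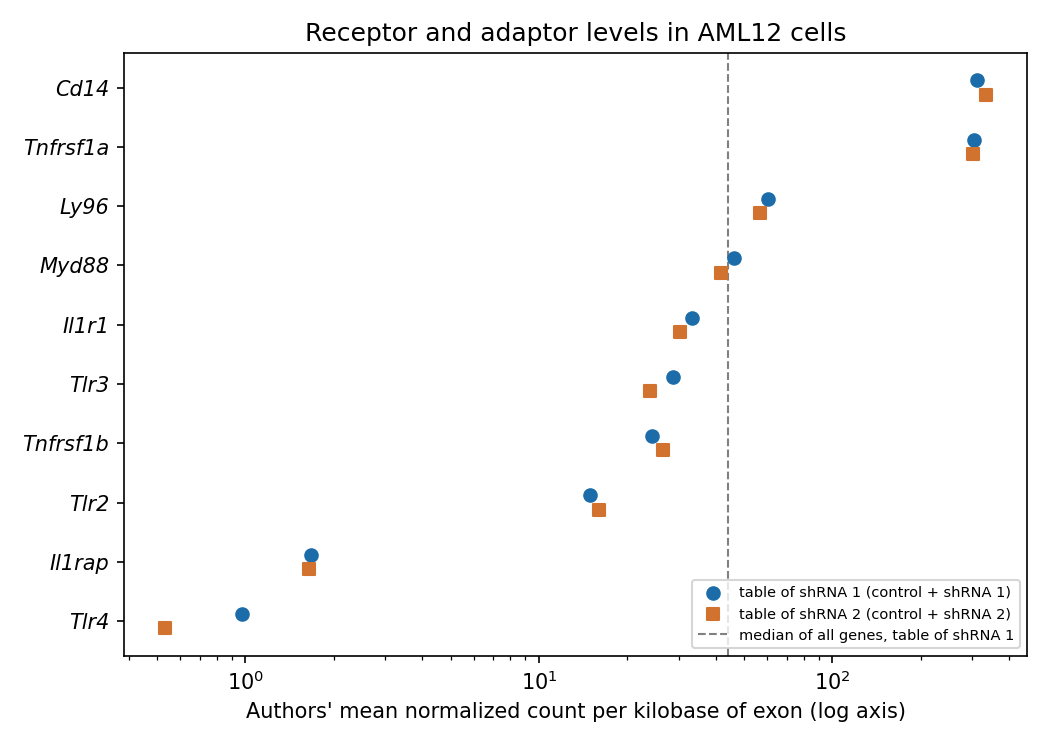
Mean normalized count per kilobase of merged exons (log axis) of the 10 genes in the table of sh1 (blue circles, Ctrl and sh1 libraries pooled) and in that of sh2 (orange squares, Ctrl and sh2 libraries pooled); the dashed line is the median over genes in both tables for sh1. *Cd14* and *Tnfrsf1a* lie between 302 and 335 per kilobase, *Tlr4* at or below 0.973, and no error can be drawn for a pooled mean.

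Of the Toll-like receptors, *Tlr3* was the most abundant. *Tlr3* (ENSMUSG00000031639.5, minus strand of chromosome 8 of mm9, 46481019 to 46495962) had mean normalized counts of 125 in the table of sh1 and 105 in that of sh2, or 28.5 and 24.0 per kilobase. *Tlr2* (chromosome 3, 83640195 to 83645689, minus strand) had mean normalized counts of 45.0 and 48.4, or 14.9 and 16.0 per kilobase, so that *Tlr3* lay 1.91-fold above *Tlr2* in the first table and 1.49-fold in the second. *Tlr4* (chromosome 4, 66488618 to 66591318, plus strand) had mean normalized counts of 5.40 and 2.95, or 0.973 and 0.531 per kilobase. This placed *Tlr4* above only 3.02% and 0.898% of the genes of the respective tables, while *Tlr3* lay above 40.2% and 35.8%. The few reads behind *Tlr4* make its level the least precise of the 10.

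The co-receptors of *Tlr4* were present at much higher levels than *Tlr4*. *Cd14* (ENSMUSG00000051439.6) had mean normalized counts of 490 and 526, or 312 and 335 per kilobase, above 93.1% and 93.4% of all genes. *Ly96*, which encodes the MD-2 chain (chromosome 1, 16678537 to 16699686, plus strand), had mean normalized counts of only 36.5 and 34.1. Its annotated transcript is 603 bases long, so per kilobase it reached 60.5 and 56.5, above the median gene. Per kilobase, *Cd14* exceeded *Ly96* 5.16-fold in the table of sh1 and 5.93-fold in that of sh2, and *Ly96* exceeded *Tlr4* 62.2-fold and 106-fold. With the longest transcript of each gene, *Ly96* exceeded *Tlr4* 45.6-fold and 78.0-fold. Fold values over *Tlr4* rest on its low mean and differed between the tables.

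*Myd88*, the adaptor shared by *Tlr2*, *Tlr4* and the IL-1 receptor (chromosome 9, 119245052 to 119250529, minus strand), had mean normalized counts of 119 and 108, or 46.3 and 41.8 per kilobase. It lay near the middle of all genes, above 51.8% and 48.3% of them, and 3.09-fold and 2.61-fold above *Tlr2*. *Acaa1a* overlaps its span on the opposite strand. The authors describe strand-specific libraries, but how strand was treated in counting is not given in the sources used here.

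The chains of the IL-1 receptor were unequal. *Il1r1*, the ligand-binding chain (chromosome 1, 40281925 to 40373043, plus strand), had mean normalized counts of 167 and 153, or 33.1 and 30.2 per kilobase. *Il1rap*, the accessory chain needed for signalling (chromosome 16, 26581790 to 26730203, plus strand), had 19.0 and 18.8, or 1.67 and 1.65 per kilobase. *Il1r1* thus exceeded *Il1rap* 19.8-fold and 18.2-fold. The size of this gap depends on the length taken for *Il1rap*, which has 7 annotated transcripts and 11360 bases of merged exons, against 4520 bases in its longest transcript. With the longest transcript of each gene the gap was 8.25-fold and 7.60-fold. *Il1rap* is known to give rise to membrane-bound and soluble forms, and a mean per gene does not tell them apart. An annotated gene on the opposite strand overlaps the span of *Il1rap* too.

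The TNF receptors were unequal as well. *Tnfrsf1a* (chromosome 6, 125299380 to 125312502, plus strand) had the highest mean normalized counts of the 10 genes, 790 and 785, or 304 and 302 per kilobase, above 92.9% and 92.4% of all genes. *Tnfrsf1b* (chromosome 4, 144803366 to 144836773, minus strand) had 92.7 and 101, or 24.3 and 26.4 per kilobase. *Tnfrsf1a* therefore lay 12.5-fold above *Tnfrsf1b* in the table of sh1 and 11.5-fold in that of sh2. With the longest transcript of each gene the gap was 15.1-fold and 13.8-fold.

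The order of the 10 levels was nearly the same in both tables, from *Cd14*, *Tnfrsf1a*, *Ly96*, *Myd88* and *Il1r1* down to *Tlr2*, *Il1rap* and *Tlr4*. *Tlr3* and *Tnfrsf1b* changed places, with *Tlr3* the higher in the table of sh1 and *Tnfrsf1b* the higher in that of sh2. *Cd14* and *Tnfrsf1a* cannot be ordered either, since they differed by 1.03-fold and 1.11-fold and *Tnfrsf1a* led when the longest transcripts were used. Both tables contain control libraries, so their likeness is not that of separate experiments.

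The tables were then compared with each other. The means of sh2 were multiplied by 0.950, the median ratio over genes with a mean over both tables of at least 10. If the same control libraries entered both tables and contributed alike after scaling, a remaining difference comes from the sh1 and sh2 libraries. The ratio of those libraries is then at least as far from 1 as that of the pooled means. Because the tables were normalized separately, it was not established that the controls contributed alike. Of the control libraries, 1 is labelled with both tables, while those of the other 2 name the table of sh1 and tables of further hairpins for which the labels used here list no library. Whether those names are label errors, and so whether all controls were shared, was not established. Of the 9 members with a mean of at least 10, 1 had a log2 ratio beyond 0.32 in either direction (a mean 25% higher or 20% lower in the table of sh1), against 9.04% of 11598 genes. With no spread between libraries, passing this limit is a description and not a test.

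The member past that limit was *Tlr3*, whose pooled mean in the table of sh1 was 25.3% above that of sh2 after scaling, a log2 ratio of 0.32. Among the 4960 genes with a mean between 100 and 500, the log2 ratio ranged from -0.24 at the 5th to 0.28 at the 95th percentile. *Tlr3* lies near the lower end of this class. Among the 1558 genes with a mean between 50 and 100 the 95th percentile was 0.36, above its ratio. If the controls were shared and contributed alike, the sh1 libraries held on average 50.6 more normalized counts of *Tlr3* than the sh2 libraries. The value stands just above the limit under the median scaling alone. It was 0.31 when the summed means were used for scaling, with or without *Malat1*, and 0.25 without scaling, in each case below the limit. *Myd88* and *Il1r1* followed with log2 ratios of 0.22 and 0.21, inside the range of the 4960 genes and below the limit. *Ly96* had a log2 ratio of 0.17, *Il1rap* 0.09 and *Tnfrsf1a* 0.08. *Tlr2*, *Cd14* and *Tnfrsf1b* had log2 ratios of -0.03, -0.03 and -0.05, so the most abundant co-receptor and the second TNF receptor had almost the same mean in both tables.

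*Tlr4* had the widest ratio of the 10, 1.93-fold or 0.95 on the log2 scale, but its mean lies below the minimum of 10. Among the 1661 genes with so low a mean the log2 ratio ran from -0.77 at the 5th to 0.74 at the 95th percentile. If the controls were shared and contributed alike, the difference amounts to 5.20 normalized counts between the sh1 and sh2 libraries. Over the 9 members with a mean of at least 10, 6 were higher in the table of sh1 and 3 lower, with a median log2 ratio of 0.09. Over the 11598 genes, 5799 were higher and 5799 lower, an even split that the median scaling sets. Past the limit, 541 of these genes were higher and 507 lower in the table of sh1, and without scaling 322 and 858.

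**Figure D2:**
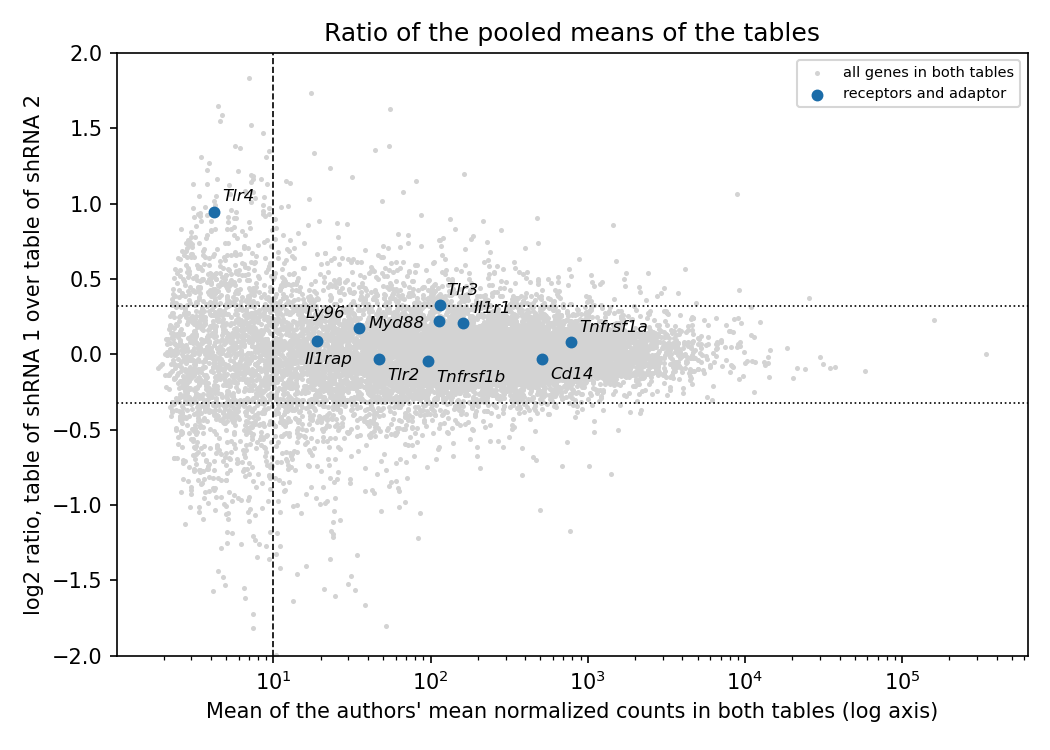
Log2 ratio of the mean normalized count in the table of sh1 over that of sh2, after scaling, against the mean of both (log axis); grey points are genes in both tables, blue points the 10 members, dotted lines the limits on the log2 ratio and the dashed line the minimum mean of 10, and 7 genes lie outside the vertical range. *Tlr3* lies on the upper limit at 0.32, *Tlr4* at 0.95 among the scattered low genes, and the other 8 between -0.05 and 0.22.

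Genes that act with these receptors were taken from lists by role. Those past the limit are to be read beside the 9.04% of 11598 genes that passed it. They were counted under the median scaling. Without scaling all log2 ratios shift by -0.07, so genes near the limit on either side can fall inside it or pass it. Of a list of 10 genes made up of other Toll-like receptors and the related *Cd180*, 3 have a row in both tables, and all were low. *Tlr5*, the flagellin receptor, had 7.11 and 6.50 per kilobase. *Tlr1* had 4.02 and 4.46 and *Tlr6* 2.35 and 3.06, both partners of Tlr2 in lipoprotein recognition and both below *Tlr2* itself. The other 7 of this list, among them *Tlr7* and *Tlr9*, were not analysed here for lack of a row. Of 8 other genes of the IL-1 receptor family, 2 have a row in both tables. *Sigirr*, which restrains IL-1 and Toll-like receptor signalling, had 57.0 and 53.3 per kilobase, above *Il1r1*. *Il18rap*, the accessory chain of the IL-18 receptor, had 9.79 and 14.4 per kilobase and was past the limit. Its log2 ratio was -0.49, so the mean was lower in the table of sh1. That ratio lies below the 5th percentile of -0.34 among genes with a mean between 50 and 100.

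Of 15 other TNF receptor family genes, 12 have a row in both tables, with a median of 83.9 per kilobase in the table of sh1. *Tnfrsf12a*, the receptor for TWEAK, and *Ltbr*, the lymphotoxin beta receptor, led with 615 and 474 per kilobase in that table, both above *Tnfrsf1a*. *Tnfrsf11a* was lowest with 2.25. *Tnfrsf14* alone of the 12 was past the limit, with a log2 ratio of -0.42 at mean normalized counts of 18.1 and 25.4. That ratio lies above the 5th percentile of -0.55 among genes with a mean between 10 and 50. Both TNF receptors are known to be shed from the cell surface, which RNA levels do not show.

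The signalling proteins below the receptors were represented almost completely, with 23 of 24 adaptor and kinase genes in both tables and a median of 69.5 per kilobase in the table of sh1. *Chuk*, a kinase of the IKK complex, and *Ube2n*, a ubiquitin-conjugating enzyme, had 224 and 183 per kilobase. *Sarm1* was lowest with 0.599. *Ticam1*, the adaptor of *Tlr3*, had 69.5 and 75.0 per kilobase, above *Myd88*. *Birc3*, a ubiquitin ligase of TNF receptor complexes, was the 1 gene of 22 past the limit, with mean normalized counts of 289 and 384 and a log2 ratio of -0.33. That ratio lies below the 5th percentile of -0.24 among genes with a mean between 100 and 500.

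Of 10 names of negative regulators, 9 occur in the annotation. Of these, 8 have a row in both tables, with a median of 102 per kilobase in the table of sh1. *Tnfaip3*, the ubiquitin-editing enzyme A20, had 281 and *Tnip1*, its binding partner, 195, while *Tnip2* was lowest with 28.9, and none was past the limit. Of 15 names of ligands and antagonists, 12 occur in the annotation and 6 have a row in both tables. *Lbp*, the lipopolysaccharide-binding protein that delivers its ligand to Cd14, had 247 per kilobase, and *Il33*, an IL-1 family cytokine, 125. The lowest was *Il1rn*, the IL-1 receptor antagonist, with 5.24 per kilobase. *Il1rn* and *Il18* were past the limit, with log2 ratios of -0.43 and -0.46. The mean normalized counts of *Il1rn* were 16.8 and 23.7, and those of *Il18* 20.6 and 29.9. Among the 2122 genes with a mean between 10 and 50, the log2 ratio ran from -0.55 at the 5th to 0.45 at the 95th percentile. The log2 ratios of *Il1rn* and *Il18* lie inside that range. *Il1a*, *Il1b* and *Tnf*, the ligands of the receptors described, were not analysed here for lack of a row. All 9 genes for chaperones and shedding of these receptors have a row. *Hsp90b1*, the endoplasmic reticulum chaperone of Toll-like receptors, had 852 per kilobase and *Lman1*, a cargo receptor, 112, and *Timp3*, an inhibitor of receptor shedding, was lowest with 1.13. *Lman1* was the 1 gene of these past the limit, with a log2 ratio of 0.39.

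**Figure D3:**
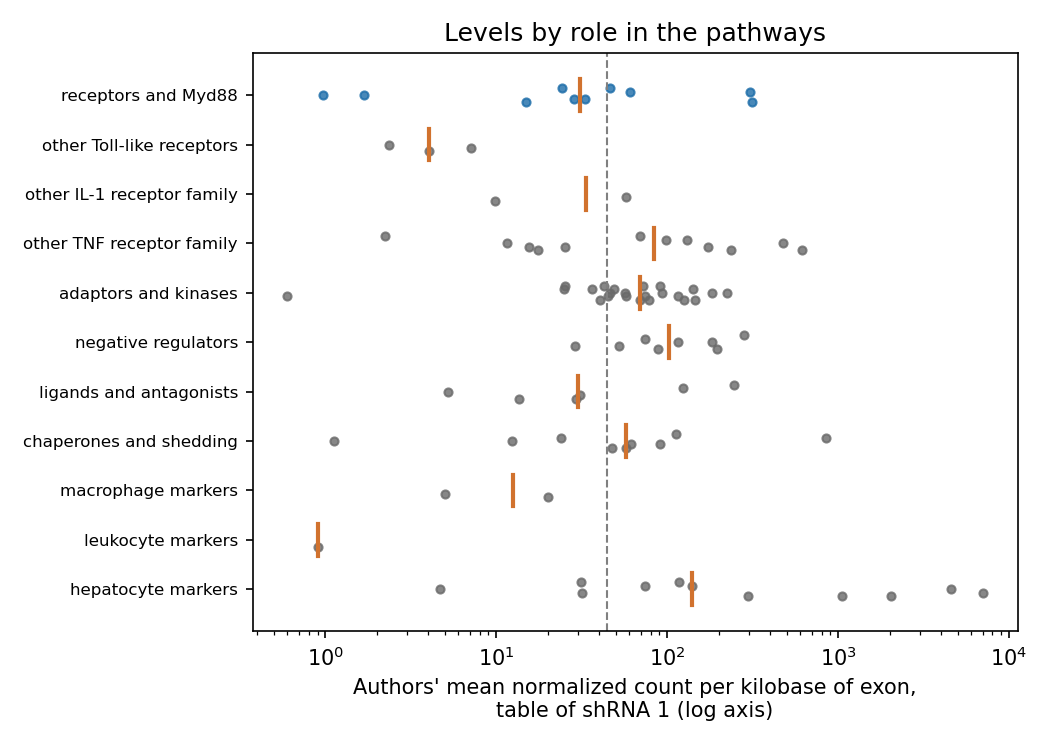
Mean normalized count per kilobase in the table of sh1 (log axis) for each gene with a row in both tables, by list; blue points are the 10 members, orange bars the list medians and the dashed line the median of genes in both tables. Other Toll-like receptors lie at or below 7.11 per kilobase, and adaptors and kinases have a median of 69.5.

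*Cd14*, *Tlr2* and *Tlr4* are also expressed by macrophages, so markers of other cell types were read beside them. Of 10 macrophage marker names, counting *Emr1* and its newer name *Adgre1* apart, 2 have a row in both tables, *Cd68* with 20.0 and 23.7 per kilobase and *Csf1r* with 5.01 and 5.21. Of 8 leukocyte markers only *Ptprc* (CD45) has one, with 0.911 and 0.941 per kilobase, compared with 312 and 335 for *Cd14*. Of 7 endothelial markers only *Vwf* was listed, with 0.152 and 0.446, and of 8 stellate cell markers 3 were, with at most 2.14 per kilobase in the table of sh1. Hepatocyte markers were high, with 11 of 12 in both tables, among them *Krt18* with 7034 per kilobase, *Ttr* with 2049 and *Alb* with 1053 in the table of sh1. *Cps1*, a urea cycle enzyme, was low with 4.71. Of 5 ductal markers 4 have a row in both tables, and *Spp1* and *Krt19* reached 2448 and 1537 per kilobase in the table of sh1. The ductal marker *Epcam* was not analysed here for lack of a row. AML12 cells thus carried some ductal as well as hepatocyte markers.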

How the data were processed

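The values come from the authors' differential expression run (DESeq2, version 1.8.2), which took HTSeq counts per gene of GENCODE M1. Behind these counts are TopHat2 alignments to mm9, limited by the authors to concordant pairs with a single mapping position. The deposited signal used here is the mean normalized count of each gene, that is, counts divided by size factors and averaged by the authors over the control libraries and those of 1 hairpin. The deposited tables also hold the authors' log2 fold changes, their standard errors, test statistics and p-values, which were not used. Without values per library, no model could be fitted and the depth of a library is unknown. A mean is lower in precision where few reads were counted.

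Gene identifiers of all 13643 genes matched GENCODE M1 on NCBIM37, the assembly of mm9, which gave symbols, positions and exon lengths. Levels were divided by the merged exon length in kilobases. The means of sh2 were scaled to those of sh1 by the median ratio over genes with a mean of at least 10, and genes whose mean was 25% higher or 20% lower in the table of sh1 (a log2 ratio beyond 0.32) were counted. Scaling and count were tested on simulated data with changes far beyond this limit and with all controls shared by both tables. That test does not bear on ratios near the limit or on genes with low means.

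All 10 members are named. Of other pathway lists, the 2 highest and the lowest gene by level in the table of sh1 are named, with genes past that limit, and of marker lists the highest and the defining ones. *Ticam1*, *Tlr7*, *Tlr9*, *Il1a*, *Il1b*, *Tnf*, *Epcam* and *Acaa1a* are named beyond this rule. The members and lists were chosen with earlier results of these data known. Alternatives were other lengths, ranked genes, scalings, limits and minimum means. Samples were grouped by their titles. Python 3.11.15, numpy 2.4.6, pandas 2.3.3 and matplotlib 3.10.9 were used.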

Additional observations from a re-analysis of the deposited data

How the results depend on the processing

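A value counted as moved when an alternative shifted it by more than the SD of the log2 ratio over genes (0.22), a percentile by 5 points or more, or a count by over 1.5 times. No paired analysis was possible because each column is a mean pooled over libraries, and for the same reason no library could be left out. With the longest transcript in place of merged exons, the median level of the 10 genes went from 30.8 to 31.8 per kilobase in the table of sh1, while *Il1rap* went from 1.67 to 4.20, *Tlr4* from 0.973 to 1.33 and *Tnfrsf1a* from 304 to 366. The median share of genes below the members was 41.9% over all genes and 34.8% when genes with a mean under 10, and *Tlr4* with them, were left out of the ranking. The 1048 genes past the limit between the tables became 233 at a 1.5-fold limit, 1759 with no minimum mean and 552 with a minimum of 50. Without scaling there were 1180, all ratios shifted by -0.07 on the log2 scale, and no member passed the limit. Scaled by the summed means, with or without *Malat1*, *Tlr3* had a log2 ratio of 0.31, also below it. At 1.5-fold no member passed it, and with no minimum mean *Tlr3* and *Tlr4* did. The median log2 ratio of the 10 genes was 0.13 and between 0.06 and 0.12 under the other scalings. Of the 11 alternatives for these summaries 7 stayed within the limits, and of 69 for single members 57 did. These counts include alternatives that could not move. Each other scaling shifts all log2 ratios alike, by between -0.07 and -0.02, which is less than the SD of 0.22. For *Tlr2*, *Cd14*, *Ly96* and *Tnfrsf1b* the longest transcript is as long as the merged exons, so their levels stay the same. Depth limits *Tlr4* most, whose mean normalized counts were 5.40 and 2.95.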
